A study of Mus musculus with 6 samples.

Results

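The BCL2 family survival and death genes were followed here in mouse B cell precursors transformed by BCR-ABL1, an oncogenic fusion kinase made by the Philadelphia chromosome of acute lymphoblastic leukaemia. The members were 10 genes chosen by name: Bcl2, Bcl2l1, Mcl1, Bcl2l11, Bmf, Bbc3, Pmaip1, Bax, Bak1 and Bid. The choice was made with earlier results of these data known. A gene was measured where a probe set carried its symbol and no other, and 9 of the 10 were, among 19938 genes in all. Bax, an effector of the family, was not analysed here. Each measured member had 1 probe set, so no choice between probe sets was needed.

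Total RNA of 6 samples was hybridised to Affymetrix arrays, 3 from cells labelled Dusp6 WT and 3 from cells labelled Dusp6 KO. All 6 carried BCR-ABL1, came from mice of the strain given as C57Bl/6-SV129j and were labelled as pre-B cells of BCR-ABL1-driven leukaemia. Dusp6 encodes a cytoplasmic phosphatase that removes the activating phosphates of ERK, and the comparison asks what differs in transformed cells without it. The labels give no age, no time in culture, and no word on whether a genotype's arrays stem from separate mice, cultures or clones, so the p-values cover sample-to-sample spread that could be technical alone. The strain is a mixed one, and whether the genotypes differ in background alleles as well as in Dusp6 cannot be told apart.

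Proteins of the BCL2 family decide whether the outer mitochondrial membrane is opened and cytochrome c released. The survival proteins BCL2, BCL-XL (the product of Bcl2l1) and MCL1 hold the effectors BAX and BAK1 in check. The BH3-only proteins, among them BIM (Bcl2l11), BMF, PUMA (Bbc3), NOXA (Pmaip1) and BID, bind the survival proteins or engage the effectors directly. In lymphoid cells Bcl2l11 is known as a FOXO target whose protein ERK marks for destruction, Bbc3 and Pmaip1 are known p53 targets, and Bcl2l1 is a known target of STAT5, a transcription factor that BCR-ABL1 activates.

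The promoters of 4 called members are shown because they belong to 3 of the 4 genes that rose (Bcl2, Bmf and Bid) and to the gene that fell (Bcl2l1). The promoter of Pmaip1, which also rose, is not shown. They run from 250 bases before to 50 bases after a transcript start, the outermost that the RefSeq promoter table lists for the gene, on build GRCm38.p6: chr1:106714241-106714540 for Bcl2, chr2:152831679-152831978 for Bcl2l1, chr2:118549637-118549936 for Bmf and chr6:120916775-120917074 for Bid, all on the minus strand and written 5′ to 3′ along the gene. The RefSeq gene models of Bcl2l1 and Bid begin further upstream than these starts. Capitals mark matches on either strand to the 6 motifs searched, which were STAT (TTCNNNGAA), FOXO (GTAAACA), AP-1 (TGACTCA), ETS (CCGGAAG), E-box (CACGTG) and GC box (GGGCGG).
Bcl2: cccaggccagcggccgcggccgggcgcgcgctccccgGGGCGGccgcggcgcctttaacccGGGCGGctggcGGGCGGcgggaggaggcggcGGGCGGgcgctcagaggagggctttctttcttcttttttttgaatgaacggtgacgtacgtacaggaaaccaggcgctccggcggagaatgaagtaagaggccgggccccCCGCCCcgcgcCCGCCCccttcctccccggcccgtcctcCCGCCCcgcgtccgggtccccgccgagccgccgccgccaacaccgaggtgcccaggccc
Bcl2l1: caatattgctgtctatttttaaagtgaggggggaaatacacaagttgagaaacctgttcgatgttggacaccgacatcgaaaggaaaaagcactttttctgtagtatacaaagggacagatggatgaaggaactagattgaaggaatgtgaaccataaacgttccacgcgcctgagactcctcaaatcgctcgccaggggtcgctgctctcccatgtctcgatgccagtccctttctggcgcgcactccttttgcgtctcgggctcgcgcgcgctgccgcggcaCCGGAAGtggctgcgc
Bmf: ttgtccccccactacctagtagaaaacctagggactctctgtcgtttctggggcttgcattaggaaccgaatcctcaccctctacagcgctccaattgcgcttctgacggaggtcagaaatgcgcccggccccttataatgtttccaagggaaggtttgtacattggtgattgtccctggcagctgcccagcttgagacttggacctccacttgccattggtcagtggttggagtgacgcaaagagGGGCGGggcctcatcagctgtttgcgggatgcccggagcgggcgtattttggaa
Bid: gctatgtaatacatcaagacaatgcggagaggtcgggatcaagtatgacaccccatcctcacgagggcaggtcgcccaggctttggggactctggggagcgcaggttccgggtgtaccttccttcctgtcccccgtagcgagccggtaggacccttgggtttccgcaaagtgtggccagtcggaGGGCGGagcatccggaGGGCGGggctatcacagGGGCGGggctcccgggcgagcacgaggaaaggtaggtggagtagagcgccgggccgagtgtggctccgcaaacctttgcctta

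The promoter of Bcl2 was rich in G and C (76%) and held 7 GC boxes. That of Bid held 3 and that of Bmf 1. The promoter of Bcl2l1 was less rich in G and C (52.3%), and its single match was an ETS motif just after the start. GC boxes were common in general, with 35.7% of the 32851 promoters of this length in the table holding at least 1, against 8.86% for ETS and 8.3% for STAT. No match was overlapped by another in these 4 windows, and a match is a description of letters, not a binding site.

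As a check of the labels, Dusp6 had log2 signals of 12.36, 12.46 and 12.49 on the wild-type arrays and 9.04, 9.06 and 9.15 on the knockout arrays, a 10.3-fold difference (limma adjusted p = 4.3e-10). The deleted stretch of the gene is not described, so its overlap with the probes is not known here. All of the 14 measured B cell precursor markers were above the median gene, and 11 were above the 75th percentile. Of 14 myeloid and mast cell markers 1 was above the median, as were 0 of 10 T and NK cell, 1 of 6 erythroid and megakaryocyte and 3 of 10 stromal and fibroblast markers. The summed signal of the B cell precursor markers was 17.07 on all wild-type arrays and 16.97 to 16.99 on the knockout arrays (log2), and that of the myeloid markers was 11.17 to 11.22 and 11.37 to 11.42. By limma 2 of the 14 B cell precursor markers rose and 6 fell, and 1 of the 14 myeloid markers rose (Lyz2, 0.70). The largest of these marker changes was that of Dntt, which fell by 1.42, more than any BCL2 family member changed. Of the 10 T and NK cell markers 1 fell (Zap70, −0.15). The part of these marker shifts in the results below was not tested. In bulk RNA a change in a cell type's share cannot be told apart from a change in RNA per cell.

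Among the 9 measured members, 4 rose in the knockout cells (Bcl2, Bmf, Pmaip1 and Bid), 1 fell (Bcl2l1), and 4 did not pass the test (Mcl1, Bcl2l11, Bbc3 and Bak1). A gene passed at a limma p-value under 0.05 after Benjamini-Hochberg adjustment over all 19938 genes. The background was high, since 19.8% of all genes passed, 9.66% as higher and 10.2% as lower. All 9 members lay above the median signal, from the 51.3rd percentile (Pmaip1) to the 94.6th (Bcl2). When only genes at or above that median were fitted, 1769 were called higher and 2206 lower. Those calls were about as many as the 3954 of the fit over all genes, though only the brighter genes were fitted. The share among genes that bright was therefore far above 19.8%. For the members, 19.8% is thus too low a background. The median difference (knockout minus wild type, log2) was 0.07 over the 9 members and 0.002 over all genes, and the median absolute difference was 0.21 and 0.07. No member reached 2-fold, which 258 genes did. Of the 3 survival genes, Bcl2 rose, Bcl2l1 fell and Mcl1 did not pass, and the 3 BH3-only genes that passed all rose.

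**Figure D1:**
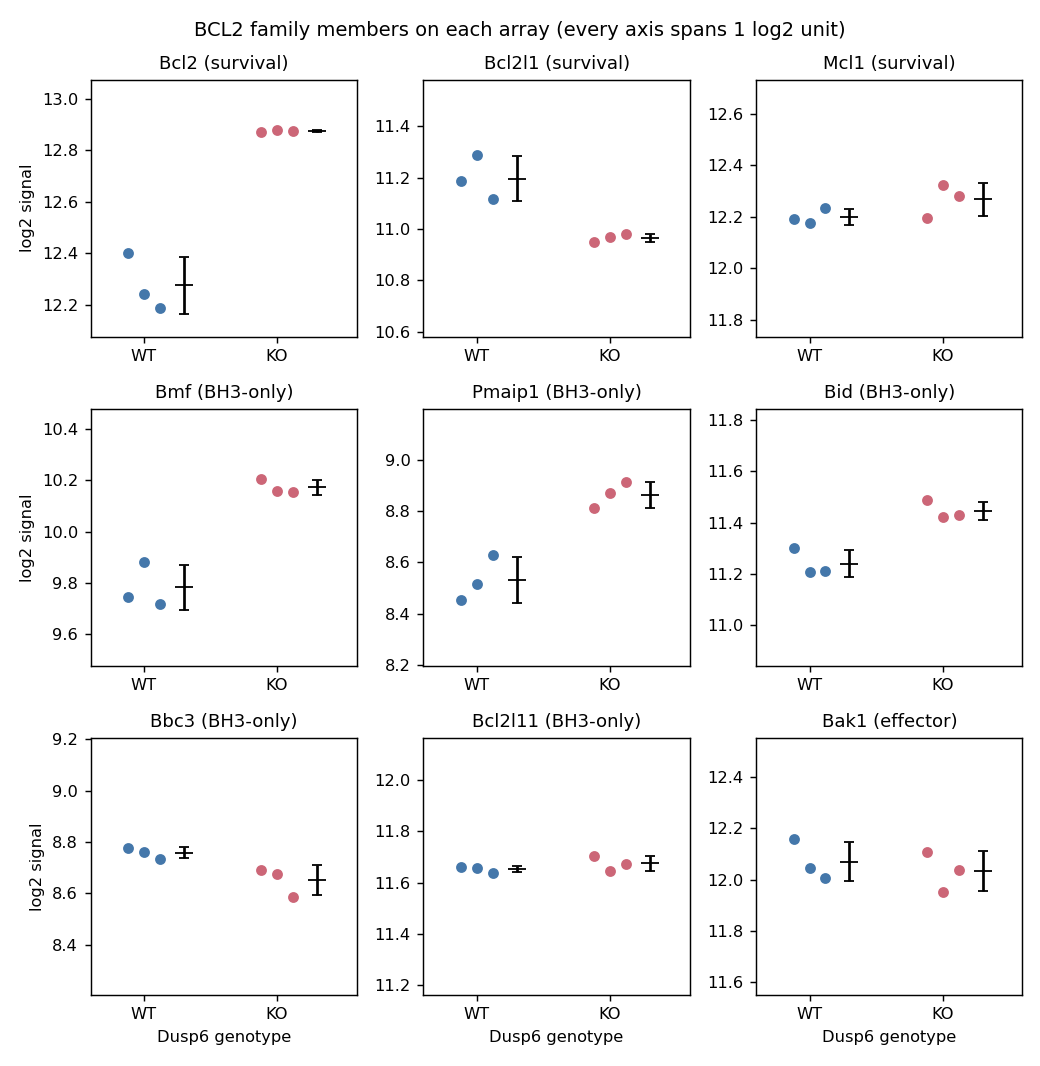
Log2 signal of the 9 measured members on each array, with wild type (WT, blue) and Dusp6 knockout (KO, red) side by side; each point is 1 array, the black bar is the mean ± SD of 3 arrays, and every vertical axis spans 1 log2 unit. The points of the genotypes are apart for Bcl2, Bcl2l1, Bmf, Pmaip1, Bid and, by the smallest gap, Bbc3, and mixed for Mcl1, Bcl2l11 and Bak1.

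Of the survival genes, Bcl2 changed most. BCL2 is the founding member of the family and the target of the drug venetoclax. Its log2 signals were 12.40, 12.24 and 12.19 on the wild-type arrays and 12.87, 12.88 and 12.87 on the knockout arrays. The lowest knockout value lay 0.47 above the highest wild-type value, and the knockout arrays were almost alike (range 0.0079) while the wild-type arrays ranged over 0.21. The difference was 0.60 ± 0.057 (SE), or 1.52-fold (95% interval 1.39 to 1.66; limma adjusted p = 6.2e-05). In absolute size it stood at the 97.0th percentile of all genes.

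Bcl2l1, whose main product BCL-XL shares many binding partners with BCL2, moved the other way. The wild-type arrays gave 11.19, 11.29 and 11.12 and the knockout arrays 10.95, 10.97 and 10.98, again with less spread in the knockout cells. The groups did not overlap, but the gap of 0.14 was smaller than the wild-type range of 0.17. Bcl2l1 fell by 0.23 ± 0.051 (SE), to 0.852 of its wild-type level (95% interval 0.787 to 0.923; limma adjusted p = 0.011). The gene is known to give a long survival form and a short death form by splicing, and 1 value per gene cannot separate them.

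Mcl1 encodes a short-lived survival protein that B cell precursors depend on. Its signals were 12.19, 12.17 and 12.23 in wild type and 12.20, 12.32 and 12.28 in knockout, so that the lowest knockout array lay among the wild-type arrays. The difference was 0.07 ± 0.047 (SE; limma adjusted p = 0.39). Its 95% interval runs from 0.974 to 1.13 of the wild-type level, so a rise as large as that of Bcl2 lies outside it, while a change of a few percent does not.

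The values of Bcl2 and Bcl2l1 were also set against each other within each array, where any scaling of a whole array cancels. The pair holds a gene called higher and a gene called lower, and the shift is the sum of their differences given above, so it is a description and no further support. Log2 Bcl2 minus log2 Bcl2l1 was 1.21, 0.95 and 1.07 on the wild-type arrays and 1.92, 1.91 and 1.89 on the knockout arrays. The groups were apart, and the mean moved from 1.08 ± 0.13 to 1.91 ± 0.014 (SD, n = 3 each). The shift of 0.83 is a 1.78-fold change of Bcl2 relative to Bcl2l1. The value of each array mixes probe sets of different brightness, so its size says nothing of which transcript is more abundant.

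**Figure D2:**
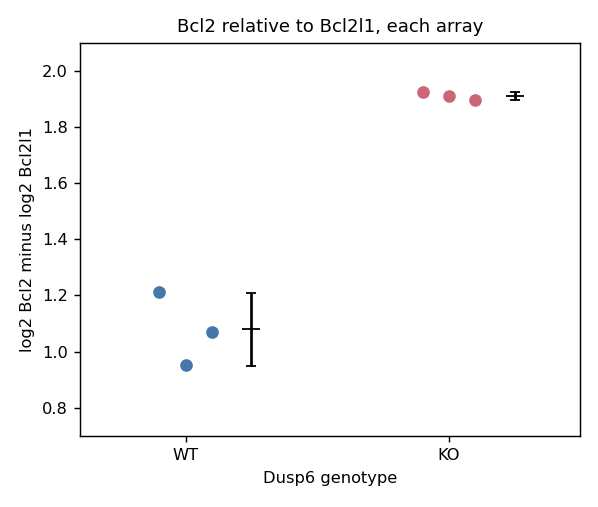
Log2 Bcl2 minus log2 Bcl2l1 on each of the 3 wild-type (WT) and 3 Dusp6 knockout (KO) arrays, with black bars for the mean ± SD. The knockout arrays lie between 1.89 and 1.92, all above the highest wild-type array at 1.21.

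The BH3-only genes that passed were Bmf, Pmaip1 and Bid. Bmf encodes a BH3-only protein tied to the cytoskeleton. It had signals of 9.75, 9.88 and 9.72 in wild type and 10.21, 10.16 and 10.15 in knockout, with a gap of 0.27 between the groups. It rose by 0.39 ± 0.052 (SE), or 1.31-fold (95% interval 1.21 to 1.42; limma adjusted p = 5.4e-04).

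Pmaip1 encodes NOXA, which binds MCL1 and little else among the survival proteins. Its signals were 8.45, 8.51 and 8.63 in wild type and 8.81, 8.87 and 8.91 in knockout. These are the dimmest values of the 5 members that passed and lie just above the array medians of 8.38 to 8.42. The groups did not overlap, and the gap of 0.18 was close to the wild-type range. Pmaip1 rose by 0.33 ± 0.055 (SE), or 1.26-fold (95% interval 1.16 to 1.37; limma adjusted p = 0.0021).

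Bid links death receptors to mitochondria, because caspase-8 cleaves it into its active form. The wild-type arrays gave 11.30, 11.21 and 11.21 and the knockout arrays 11.49, 11.42 and 11.43. Every knockout value was above every wild-type value, by at least 0.12. Bid rose by 0.21 ± 0.045 (SE), or 1.15-fold (95% interval 1.08 to 1.24; limma adjusted p = 0.010). Of the members that rose, Bid had the smallest change.

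Bbc3 and Bcl2l11 did not pass. Bbc3 encodes PUMA, which binds all the survival proteins. It had signals of 8.78, 8.76 and 8.74 in wild type and 8.69, 8.68 and 8.59 in knockout. The knockout arrays were all lower, by a gap of 0.043, and the difference was −0.11 ± 0.045 (SE; unadjusted p = 0.041, adjusted p = 0.14, limma). Pmaip1, also named above as a known p53 target, differed in the opposite direction.

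Bcl2l11 encodes BIM, the BH3-only protein best known for its regulation by ERK. Its signals were 11.66, 11.66 and 11.64 in wild type and 11.71, 11.65 and 11.67 in knockout, and the groups overlapped. The difference was 0.02 ± 0.040 (SE; limma adjusted p = 0.76), with a 95% interval from 0.954 to 1.08 of the wild-type level. Changes in BIM protein, or between its splice forms, would not be seen in this value.

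Of the effectors, Bak1 was measured. BAK1 sits in the outer mitochondrial membrane and forms pores once activated. The wild-type arrays gave 12.16, 12.05 and 12.01 and the knockout arrays 12.11, 11.95 and 12.04. The groups overlapped widely, and the difference was −0.04 ± 0.057 (SE; limma adjusted p = 0.73), with a 95% interval from 0.892 to 1.06 of the wild-type level. The sign of this difference changed without wild-type replicate 1 (0.0060) or without knockout replicate 2 (0.0031).

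**Figure D3:**
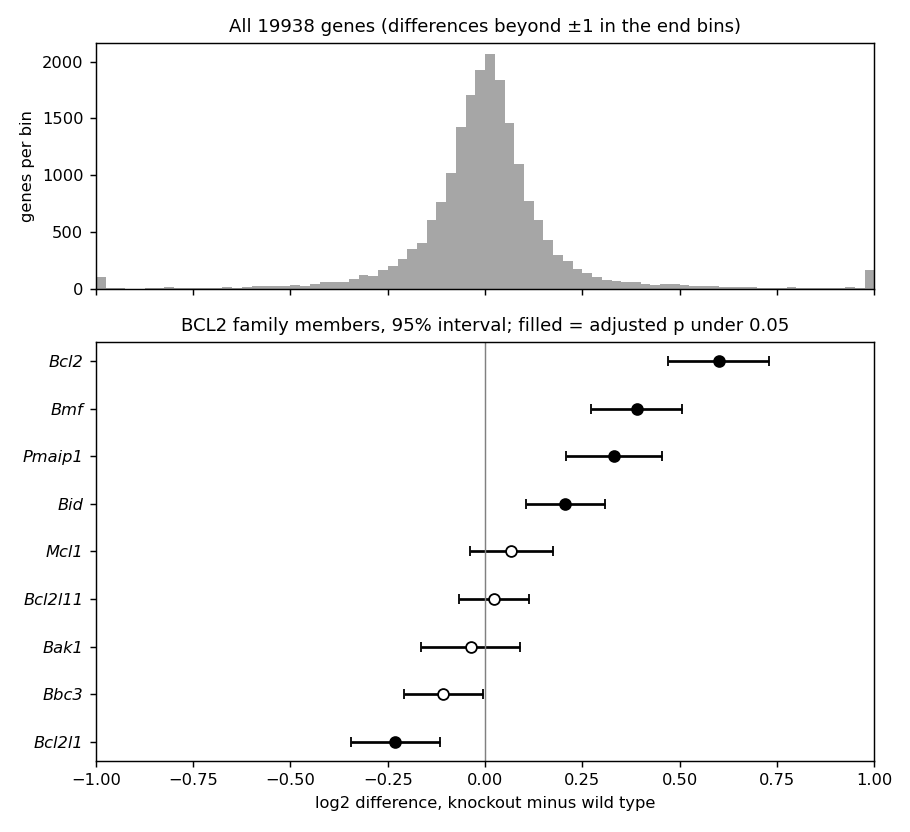
Upper panel, number of genes by log2 difference (knockout minus wild type) over all 19938 genes; lower panel, the 9 measured members with limma's 95% interval, filled where the adjusted p was under 0.05. Bcl2 (0.60), Bmf (0.39) and Pmaip1 (0.33) lie in the upper tail, and Bcl2l1 (−0.23) in the lower.

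The 3 knockout and 3 wild-type values did not overlap in 6 of the 9 members, against 35.7% of all genes. That share covers dim genes too and was not computed for genes as bright as the members. For a single member tested by exact permutation the smallest p is 0.10, which those 6 reached. The 5 members that passed kept their direction and their call with any 1 array left out, with the highest adjusted p for Bid (0.044) and Bcl2l1 (0.036). Limma's standard error of the difference between genotypes was small, with a median of 0.051 over all genes. The differences of Bid and Bcl2l1 were 4.56 and −4.54 times their own standard errors, and their sizes were 1.15-fold and 1.17-fold.

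The genes whose values followed the called members most closely over the 6 arrays were Cpe and Phactr4 for Bcl2 (Pearson r of 0.9992 and 0.9987), Vav2 and Sh2d5 for Bmf (0.9992 and 0.9988), and Chst15 and Erlin1 for Pmaip1 (0.9969 and 0.9951). The points share their arrays, and all of these genes differ between the genotypes, so the values are a description only. An r of at least 0.95 with Bcl2 was found for 849 genes, with Bmf for 728 and with Pmaip1 for 374.

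The rest of the family, where measured, differed little. Of 17 other BCL2 family genes listed, 14 were measured. Among these, 1 rose and 0 fell by limma (7.14%, against 19.8% of all genes). An unadjusted p under 0.05 was found for 3, and the median difference was 0.03. Every one of the 14 differed by less than 0.2. The largest difference was that of Bcl2l12 (0.18, limma adjusted p = 0.056), whose groups did not overlap. Bcl2l14, a dim gene, rose by 0.17 (limma adjusted p = 0.043). Its call was lost without wild-type replicate 1 or 2 (adjusted p = 0.135 and 0.139) and without knockout replicate 2 or 3 (0.129 and 0.097), and in 8 of 13 other settings in all. Hrk and Bad, BH3-only genes, differed by 0.03 and −0.06, Bik by −0.16 (limma adjusted p = 0.14) and the effector-like gene Bok by 0.

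Downstream of mitochondria, 1 of 12 apoptosome, caspase and release-factor genes rose and 2 fell (25%, against 19.8% of all genes). Casp9, the caspase that the apoptosome activates, rose by 0.17 (limma adjusted p = 0.011). The mitochondrial protease gene Htra2 fell by 0.19 and the mitochondrial nuclease gene Endog by 0.18 (limma adjusted p = 0.044 and 0.023). Htra2 kept its call when knockout replicate 1 was left out, and lost it when any other array was (adjusted p 0.051 to 0.139). Endog lost it without wild-type replicate 1 or 2 (0.095 and 0.076) or knockout replicate 2 or 3 (0.057 and 0.079). Apaf1, the scaffold of the apoptosome, differed by 0.10 (adjusted p = 0.17) and the cytochrome c gene Cycs by 0.02.

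Of 8 genes for inhibitor of apoptosis proteins, 1 was higher and 4 were lower (62.5%, against 19.8% of all genes). Birc3, a ubiquitin ligase of the NF-kB pathway, rose by 0.30 (limma adjusted p = 0.0018). Naip6, Naip2 and Naip5 fell by 0.71, 0.33 and 0.22 (limma adjusted p = 9.1e-04, 0.0061 and 0.032). The Naip genes are close copies of each other that act as sensors of bacterial proteins, so their probes may share signal, and all 3 were dim, with wild-type means of 7.32, 7.55 and 6.57 where the lower quartile of the arrays was 7.12 to 7.16. Naip5 lost its call without wild-type replicate 2 or 3 (0.086 and 0.110) or knockout replicate 2 or 3 (0.108 and 0.058). Xiap, which blocks caspases directly, differed by −0.03.

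On the death receptor side, which Bid connects to the mitochondria, 2 of 10 genes rose and 0 fell. That is 20%, near the 19.8% of all genes. Tnfsf10, which encodes the death ligand TRAIL, had signals of 8.43, 8.49 and 8.52 in wild type and 9.02, 9.28 and 9.29 in knockout. It rose by 0.71 ± 0.072 (SE), or 1.64-fold (limma adjusted p = 8.7e-05), more than any BCL2 family member. Tnfrsf10b, the gene of its receptor, gave 8.86, 8.60 and 8.76 against 9.23, 9.17 and 9.13 and rose by 0.43 ± 0.067 (SE; limma adjusted p = 0.0014). Fas differed by −0.03, Casp8 by 0.05, and the adaptor gene Fadd by 0.17 (limma adjusted p = 0.071).

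Among 11 genes of the outer mitochondrial membrane and of mitochondrial fission or fusion, 2 rose and 0 fell. That is 18.2%, near the 19.8% of all genes. The fission gene Fis1 rose by 0.40 (limma adjusted p = 1.7e-04) and the fusion gene Mfn2 by 0.21 (0.0064). Vdac2, the channel gene whose product holds BAK1, differed by −0.05. Of 9 genes for enzymes that add ubiquitin to BCL2 family proteins or remove it, 1 rose and 0 fell (11.1%, all genes 19.8%). It was the ubiquitin ligase gene Itch (0.15; limma adjusted p = 0.027), which kept its call when knockout replicate 1 was left out and lost it when any other array was (adjusted p 0.066 to 0.095). Huwe1 and Usp9x, which act on MCL1 protein, differed by −0.11 and 0.02.

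Transcription factors known to regulate BCL2 family genes went both ways, with 2 of 16 higher and 4 lower. Together these were 37.5%, against 19.8% of all genes. Most of the 16 lay above the median signal, where the share of genes called was far above 19.8%, so no excess is read from this. Stat5b and Stat5a rose by 0.24 and 0.22 (limma adjusted p = 0.0071 and 0.010). The repressor gene Bcl6 fell by 0.23, Foxo1, an activator of Bcl2l11, by 0.21, and the stress factor gene Atf4 by 0.21 (limma adjusted p = 0.0048, 0.0094 and 0.0091). Foxo3 differed by 0.003 and Myc by −0.04.

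**Figure D4:**
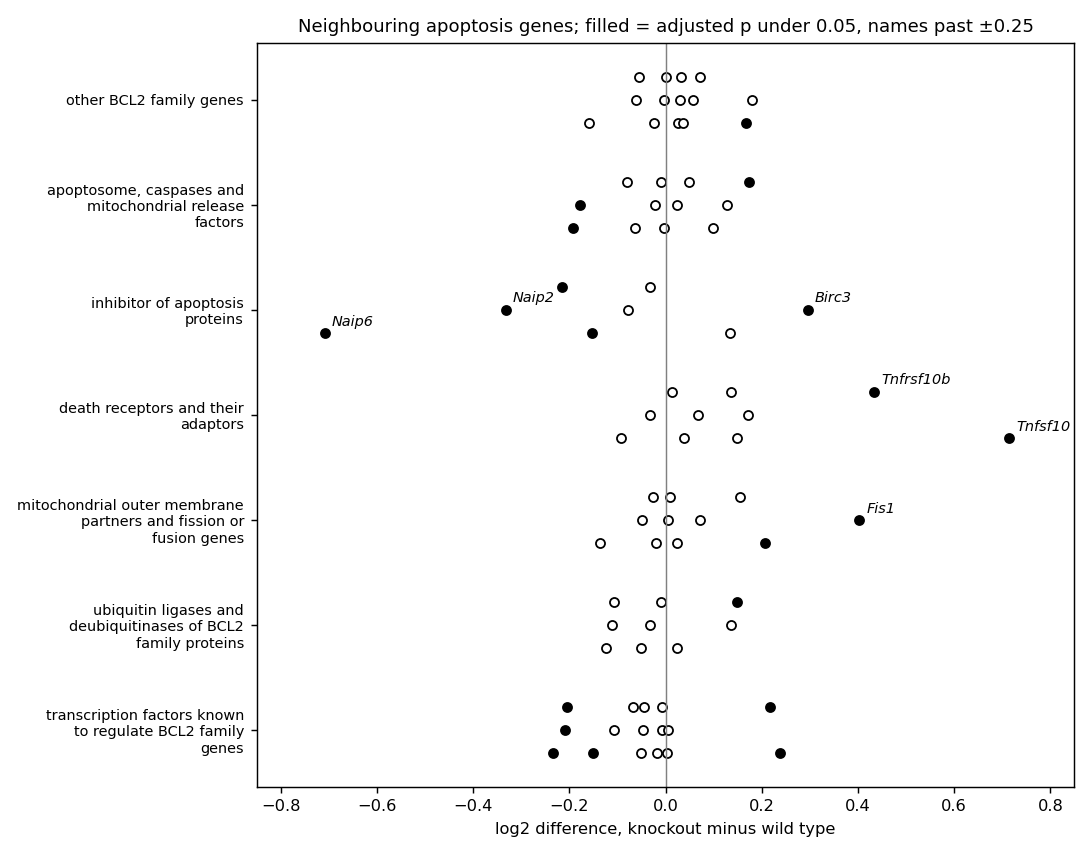
Log2 difference (knockout minus wild type) of each measured gene in the 7 lists of neighbouring apoptosis genes, 1 row of points a list with arbitrary vertical offsets; filled points had an adjusted p under 0.05 and names are given for those past ±0.25. Tnfsf10 (0.71) and Naip6 (−0.71) lie farthest from 0, and most genes lie within 0.2.

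Over the 7 lists together, 10 of 80 genes were higher and 10 lower, or 25%, against 19.8% of all genes. The 19.8% set beside each list covers dim genes too, and the share among genes above the median signal was far higher. The count of lower genes was 6, 5, 5 and 5 without wild-type replicate 1, wild-type replicate 2, knockout replicate 2 and knockout replicate 3. The median difference over the 80 genes was −0.0054, and 67 of them differed by less than 0.2. When only genes at or above the median signal were fitted, 15 list genes were called higher and 8 lower. Of all genes in that fit, 1769 were called higher and 2206 lower, so the 25% is not read as an excess.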

How the data were processed

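Total RNA of 6 samples was measured on Affymetrix arrays. The deposited values are log2 signals, 1 per probe set and array, made by the authors with RMA and Partek 6.5, per the submitters' processing notes; a genome build is not given in the sources used here. That the scale is log2 follows from the range of values. Of 35556 probe sets, the platform annotation paired 21789 with 1 gene symbol and 1621 with several, and 12146 are unnamed here; the brightest probe set stood for each of 19938 genes. Groups and replicate numbers came from the sample titles, and every value column matched a sample.

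The fit covered all genes and used limma 3.58.1 under R 4.3.3 (functions lmFit and eBayes; a single genotype term; 6 arrays), which was tested on simulated data. Calls were made at a Benjamini-Hochberg adjusted p under 0.05. Differences are knockout minus wild type. Precision is limited by the number of arrays. Promoter sequences are from RefSeq (GRCm38.p6), matched by symbol and taken for 9 of the 10 members. Promoters on chromosome 18, where Pmaip1 lies, were not used. Bmf and Bcl2l1 each have 3 starts there in RefSeq.

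The members and lists were chosen with earlier results of these data known. Named were all members, Dusp6, and in each list up to 3 called genes with the largest difference in each direction. Other genes given with values (such as Apaf1, Fas and Hrk) were chosen for their known function after their values were seen. Bcl2l12 was named for the size of its difference. For the 3 called members with the largest differences, the 2 most alike genes were named, predicted genes (Gm, Rik and LOC symbols) aside.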

Additional observations from a re-analysis of the deposited data

How the results depend on the processing

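Up to 15 other settings were run: a repeated quantile normalization, centring on array medians, a minimum signal at the 25th percentile or the median, the mean of probe sets, every probe set tested, trend and robust options, array weights, a replicate block, and each of the 6 arrays left out. The genes Bcl2l14, Naip2, Naip5 and Naip6 were in 13 of them and Bcl6 in 14, because a minimum signal removed them, and Bcl2 relative to Bcl2l1 was computed in 9. The number of members called was 5 in all 15. Of 135 member values under these settings, 133 kept their direction and side of the threshold, and the other 2 were Bak1 without wild-type replicate 1 (0.0060) and without knockout replicate 2 (0.0031), a gene that never passed; with 1 array left out it ranged from −0.075 to 0.0060. Under a minimum signal, the probe set settings, the trend and robust options and the replicate block, each member's difference equals that of the main fit. Only its call could change there, so these settings are no check of direction. The Bcl2 difference ranged from 0.56 to 0.66 and Bcl2 relative to Bcl2l1 from 0.77 to 0.90 over the settings in which they were computed. Genes of the 7 lists called lower numbered 5 to 8 with 1 array left out, against 10; these fits hold fewer samples. Same-numbered arrays did not deviate together (r of 0.0098, −0.12 and 0.053 between deviations from group means). So few arrays cannot exclude a pairing, and the labels do not say whether the numbers pair the samples. With the replicate block, 1681 genes were called higher and 1764 lower, 5 members were called, Bcl2l1 had an adjusted p of 0.022, and the lists held 8 genes called higher and 7 lower. Bcl2l14 also lost its call with all 6 arrays under the repeated quantile normalization (limma adjusted p = 0.077), centring (0.070), trend and robust options (0.061) and the replicate block (0.077). Htra2 likewise lost its call under array weights (0.051) and the replicate block (0.084), and Itch under the replicate block (0.066). Genes dimmer than the lower quartile were not tested against background.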
